A study of Mus musculus with 4 samples.

Results

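Stretches of the mouse genome dense in Tal1 tags but poor in Ldb1 and Gata2 tags were collected from chromatin immunoprecipitation sequencing of bone marrow progenitor cells. A tag is the aligned end of 1 sequenced DNA fragment. It was counted once per position and strand, and its 5′ end was moved 54 bp along its own strand, towards the middle of the fragment. The members are 500 bp bins on chromosomes 1 to 19 with at least 14 Tal1 tags and at most 3 Ldb1, 4 Gata2 and 3 IgG tags, and adjacent bins were joined. The rule found 4334 bins, joined into 4180 regions, among 4299458 bins that held a tag of any library. These bins were 0.101% of all bins with a tag and 16.1% of the 26973 bins that had at least 14 Tal1 and at most 3 IgG tags. Bins with at least 14 Tal1 tags of any kind were 0.651% of all bins with a tag. The members were chosen by the tag counts of all 4 libraries, so those counts are given as a description with no test.

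The cells came fresh from mouse bone marrow and were freed of lineage-positive cells with magnetic beads, which leaves a mixture of stem and progenitor cells. All 4 libraries came from formaldehyde-fixed chromatin of such cells and are labelled by their antibody: Ldb1, Scl/Tal1, Gata2 or control IgG. They also differed in tag length, depth, share of repeated tags and the scores deposited with them, which cannot be told apart from the antibody. No treatment or genotype separates the groups, and the sources used here do not give the strain, age or number of mice. No expression was measured, so the cell population could not be checked against marker genes. In such a mixture, binding in few cells and weak binding in many cannot be told apart. Each antibody had 1 library. Every interval below is a 95% exact interval for counting error only, and repeated PCR copies and neighbouring bins are not independent.

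Tal1, also called Scl, is a basic helix-loop-helix transcription factor needed for the formation of blood stem cells. It binds E-box sequences together with E proteins. In blood cells it often sits in a complex with a GATA factor, the LIM-only protein Lmo2 and the cofactor Ldb1. Ldb1 does not bind DNA itself. It self-associates and can thereby hold distant DNA elements together. Gata2 is the GATA factor of stem and early progenitor cells. Bins with many Tal1 tags and few tags of the other proteins are described below. Lmo2 and E proteins had no library among those used here.

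After counting each position once, chromosomes 1 to 19 held 3866477 Ldb1, 8701045 Tal1, 5785973 Gata2 and 3401045 IgG tags. Per bin with a tag, the means were 0.899 Ldb1, 2.02 Tal1, 1.35 Gata2 and 0.791 IgG tags. Tal1 tags were 36 bp long and those of the other libraries 25 bp, so Tal1 could be placed in some sequence where the others could not. Positions are in build mm8, 1-based. Genes, exons and sequence are not given for them, because no genome or annotation of that build was used here.

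The members were mostly modest Tal1 sites with a small number of tags of the other proteins rather than none. Tal1 had a median of 17 tags per member bin, with 14 at the lowest and 84 at the highest, and a mean 9.61 times the genome mean. Of the 4334 bins, 1421 held 14 or 15 Tal1 tags, 1482 held 16 to 19, 1093 held 20 to 29, 308 held 30 to 49 and 30 held 50 or more. Ldb1 was at 0 tags in 738 bins, at 1 in 1145, at 2 in 1245 and at 3 in 1206. Its mean of 1.67 tags was 1.86 times the genome mean. Gata2 was at 0 in 397 bins and at 1 to 4 in the remainder, with a mean of 2.30 tags, or 1.71 times the genome mean. IgG was at 0 in 2113 bins and averaged 0.742 tags, or 0.938 times the genome mean. The word low therefore means below a limit, and Ldb1 and Gata2 were above their genome means in these bins even with that limit. Only 43 bins (0.992%) held no tag of Ldb1, Gata2 and IgG together, and a count of 0 allows up to 3 tags.

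**Figure D1:**
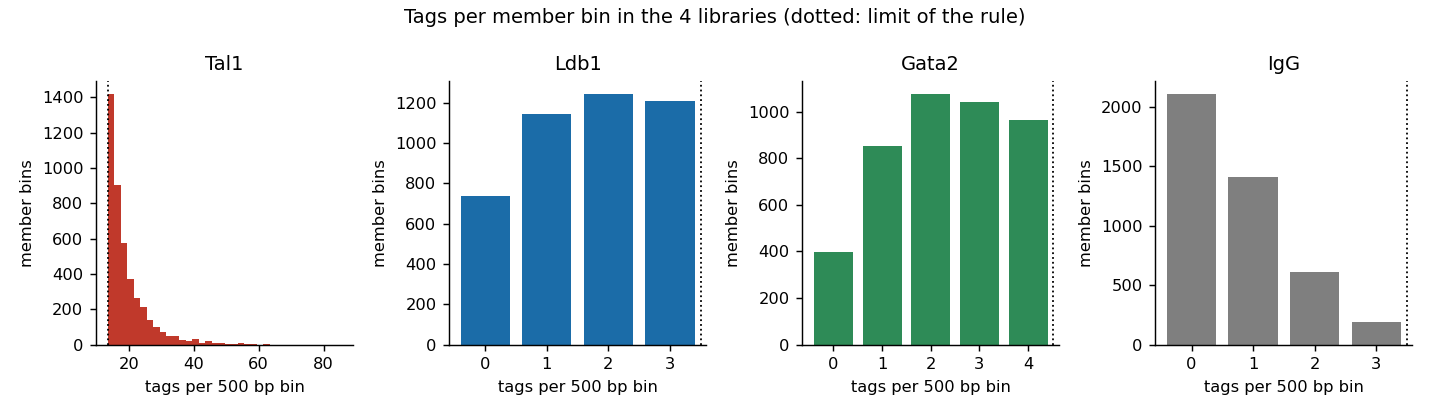
Number of member bins (vertical axis) by tags per 500 bp bin (horizontal axis) in the Tal1, Ldb1, Gata2 and IgG libraries, with the limits of the rule as dotted lines. Tal1 counts gather between 14 and 20 with a tail to 84, Ldb1 and Gata2 counts lie mostly at 1 tag or more, and IgG is most often 0.

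The counts ran across each limit without a gap. With the other limits kept, 812 bins stood at 14 Tal1 tags and 1139 at 13. At the Ldb1 limit, 1206 bins had 3 tags and 1019 had 4. At the Gata2 limit, 963 bins had 4 tags and 844 had 5. At the IgG limit, 190 bins had 3 tags and 61 had 4. Bins at 4 Ldb1 tags, for example, averaged 2.42 Gata2 and 0.786 IgG tags, against 2.30 and 0.746 for those at 3. The mean counts of the other libraries were thus close on both sides of that limit.

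The bins with at least 14 Tal1 and at most 3 IgG tags were divided at the same limits into 4 classes. At least 4 Ldb1 tags were found in 2.87% and at least 5 Gata2 tags in 3.12% of all bins with a tag. Besides the 4334 members, 5147 bins had at least 4 Ldb1 tags but few Gata2 tags, 4598 had at least 5 Gata2 tags but few Ldb1 tags, and 12894 had both, called three-factor bins below. Median Tal1 counts were 17 in the members and in the bins with Gata2, and 24 in both classes with Ldb1. The largest Tal1 count was 84 in the members, 97 in the bins with Gata2, 174 in the bins with Ldb1 and 350 in the three-factor bins. The member share fell steadily with Tal1 density. Members made up 27.0% (25.8 to 28.2) of bins with 14 or 15 Tal1 tags, 22.2% (21.2 to 23.2) at 16 to 19, 14.97% (14.2 to 15.8) at 20 to 29 and 7.06% (6.32 to 7.86) at 30 to 49. At 50 or more Tal1 tags the share was 0.892% (0.602 to 1.27), or 30 of 3364 bins. Bins with Gata2 but few Ldb1 tags fell alongside, from 26.9% to 1.63%, while three-factor bins went from 32.7% to 78.8%. Bins with Ldb1 but few Gata2 tags had no steady trend: 13.47% at 14 or 15 Tal1 tags, 29.03% at 30 to 49 and 18.6% at 50 or more. Fixed limits on Ldb1 and Gata2 were used at every Tal1 density.

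**Figure D2:**
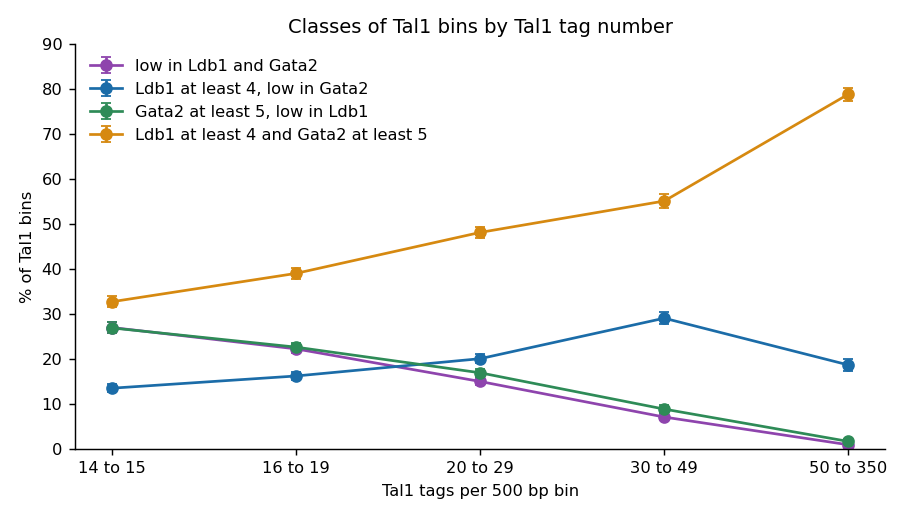
Share of Tal1 bins in each of the 4 classes (vertical axis, %) by number of Tal1 tags per bin (horizontal axis), with 95% exact intervals as bars. The share of members drops from 27.0% at 14 or 15 tags to 0.892% at 50 or more, and the share of three-factor bins climbs from 32.7% to 78.8%.

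In the 5 strongest members, the best bin exceeded the genome mean of Tal1 by more than 30 times. The first by Tal1 tags in 1 bin lay on chromosome 16 from 21656501 to 21657000 and held 84 Tal1, 2 Ldb1, 2 Gata2 and 2 IgG tags. Its Tal1 tags were split into 43 forward and 41 reverse, and its adjacent bins had at most 2 Ldb1 and 2 Gata2 tags. A window of 500 bp centred on its Tal1 summit, the position with most Tal1 tags within 50 bp, also held 2 Ldb1 and 2 Gata2 tags. Few tags of the other libraries were thus found in this bin, beside it and around its summit.

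The second by Tal1 showed the opposite. On chromosome 10 from 80290001 to 80290500 there were 79 Tal1, 3 Ldb1, 1 Gata2 and 0 IgG tags, but the summit was near the right edge. The bin to its right held 28 Tal1, 11 Ldb1 and 5 Gata2 tags. Centred on the summit, 500 bp held 103 Tal1, 10 Ldb1 and 6 Gata2 tags, so Ldb1 and Gata2 were above the limits around the summit itself.

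Next came a bin of chromosome 1, from 34410001 to 34410500. It had 74 Tal1, 3 Ldb1, 2 Gata2 and 0 IgG tags, and the centred window had 3 Ldb1 and 2 Gata2 tags. On chromosome 19, a joined region from 46172501 to 46173500 held 68 and 28 Tal1 tags in its 2 bins, with 3 Ldb1, 5 Gata2 and 3 IgG tags in all. Its adjacent bins had 1 Tal1 and 0 Ldb1 tags each. The fifth, on chromosome 10 from 118468501 to 118469000, had 66 Tal1, 1 Ldb1, 4 Gata2 and 0 IgG tags, and 7 Gata2 tags in the bin to its right. Of the 5 strongest members, 4 kept Ldb1 at 3 tags or fewer in the centred window.

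The member with most Tal1 tags in 1 bin was also taken from each chromosome. Over these 19 regions the best bin ranged from 44 to 84 Tal1 tags with a median of 58. On chromosome 5, the region from 124442501 to 124443000 held 64 Tal1 tags with 1 tag each of Ldb1, Gata2 and IgG. On chromosome 11, the region from 86568501 to 86569000 held 63 Tal1, 1 Ldb1, 4 Gata2 and 1 IgG tags. Both had few Ldb1 tags in the centred window as well, at 2 and 1. The bin to the right held 5 Ldb1 tags on chromosome 5 and 7 Gata2 tags on chromosome 11, above the limits.

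Chromosome 6 was represented from 120807501 to 120808000 by 59 Tal1, 2 Ldb1, 1 Gata2 and 1 IgG tags. The bin to its left held 5 Gata2 tags. On chromosome 12, the region from 83152001 to 83152500 had 59 Tal1, 3 Ldb1, 2 Gata2 and 2 IgG tags. On chromosome 2, the region from 158460001 to 158460500 had 58 Tal1, 3 Ldb1, 4 Gata2 and 0 IgG tags. The last touched a three-factor bin, and its left neighbour held 6 Ldb1 and 7 Gata2 tags.

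On chromosome 3, 55 Tal1, 3 Ldb1, 2 Gata2 and 0 IgG tags lay from 69095001 to 69095500. Chromosome 17 gave a joined region from 80970501 to 80971500 with 55 and 14 Tal1 tags in its bins, and 3 Ldb1, 6 Gata2 and 0 IgG tags in all. On chromosome 4, the region from 45094501 to 45095000 held 54 Tal1, 1 Ldb1, 1 Gata2 and 1 IgG tags. Each of these regions had adjacent bins with at most 2 Ldb1 tags, but the bin to the right of that on chromosome 3 held 6 Gata2 tags.

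On chromosome 7, the region from 132434001 to 132434500 held 54 Tal1, 3 Ldb1, 3 Gata2 and 0 IgG tags. On chromosome 13, the region from 113766501 to 113767000 held 54 Tal1, 2 Ldb1, 2 Gata2 and 2 IgG tags. Its neighbours held 5 and 4 Ldb1 tags and its centred window 4, above the limit. It lay 205 kb from the nearest three-factor bin, the farthest of the named regions. Chromosome 14 had 45 and 24 Tal1 tags in a joined region from 25420001 to 25421000, with 2 Ldb1, 6 Gata2 and 3 IgG tags.

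Chromosome 8 had the region from 60384001 to 60384500, with 48 Tal1, 0 Ldb1, 2 Gata2 and 1 IgG tags, and also 0 Ldb1 tags in the centred window. On chromosome 9, the region from 44612501 to 44613000 held 44 Tal1 tags with 1 tag each of Ldb1, Gata2 and IgG. Its neighbours held 4 and 5 Ldb1 tags, and the right one also 30 Tal1, 5 Gata2 and 5 IgG tags. The region's 44 Tal1 tags were the lowest best bin of the 19.

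Besides the strongest region of chromosome 10, those of chromosomes 15 and 18 lay against bins with many Ldb1 tags, at 14 and 28. On chromosome 15, the region from 53094501 to 53095000 held 59 Tal1, 3 Ldb1, 1 Gata2 and 0 IgG tags. Its summit was near the edge, and the centred window held 113 Tal1 and 15 Ldb1 tags. On chromosome 18, the region from 67699001 to 67699500 held 56 Tal1, 3 Ldb1, 1 Gata2 and 1 IgG tags, and the centred window held 148 Tal1 and 27 Ldb1 tags. Over all 19 regions, 15 kept at most 3 Ldb1 tags when centred and 4 did not. An adjacent bin had at least 4 Ldb1 tags at 7 of the 19 and at least 5 Gata2 tags at 7.

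Some members held no tag of the other libraries, and their Tal1 counts were not compared with those of the remaining members. There were 38 such regions. The first by Tal1, on chromosome 15 from 38020001 to 38020500, held 40 Tal1 tags, 21 forward and 19 reverse, and its centred window also held 0 Ldb1, 0 Gata2 and 0 IgG tags. IgG had 22 tags in the 10 kb around its summit, but whether 25 bp tags could be placed in the bin itself was not tested. The next 4 had 22 to 25 Tal1 tags and lay on chromosome 2 from 103773501 to 103774000, on chromosome 4 from 122949001 to 122949500 and from 59803001 to 59803500, and on chromosome 12 from 79896501 to 79897000. The region of chromosome 4 from 59803001 had 5 Ldb1 tags in the centred window, and the other 4 of the 5 had at most 2.

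Many members lay beside bins of the other factors. An adjacent bin had at least 4 Ldb1 tags at 1256 of 4180 regions, or 30.05% (28.7 to 31.5), where 5.44% of all bins with a tag had such a neighbour. An adjacent bin had at least 5 Gata2 tags at 1277 regions, or 30.6% (29.2 to 31.97), against 5.78% of all bins. These shares were below those of the other Tal1 classes: a neighbour with Ldb1 was found at 34.7% (33.4 to 36.1) of regions with Ldb1 alone, 41.7% (40.2 to 43.1) of those with Gata2 alone and 39.8% (38.9 to 40.8) of three-factor regions. At 739 member regions, or 17.7% (16.5 to 18.9), an adjacent bin held more Tal1 tags than the member itself, against 16.02% (14.99 to 17.1) with Ldb1 alone, 18.9% (17.8 to 20.1) with Gata2 alone and 4.49% (4.11 to 4.90) of three-factor regions. Neighbours with at most 3 Ldb1 and 4 Gata2 tags on both sides were found at 2317 regions, or 55.4% (53.9 to 56.9), called members with quiet neighbours below.

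The place of the bins decided part of the membership. The Tal1 summit lay less than 50 bp from the region edge in 984 regions (23.5%). In 500 bp windows centred on the summit, 2670 of the 4180 regions still met every limit, or 63.9% (62.4 to 65.3). Ldb1 rose to at least 4 tags in 843 of these windows and Gata2 to at least 5 in 746, and the highest Ldb1 count was 106. Tal1 fell under 14 tags in 293. With bins begun 250 bp further along, the number of regions was much the same at 4327, but only 1944 of the 4180 (46.5%) overlapped one of them. Regions that met the limits in the centred window and also had quiet neighbours numbered 1840, or 44.0% (42.5 to 45.5).

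The few Ldb1 tags in the member bins were not spread evenly. They gathered at the Tal1 summit, a feature the rule did not use, since it limited only their number. Within 100 bp of the summit lay 60.003% (58.9 to 61.1) of the 7253 Ldb1 tags in the regions, on 34.2% of the length. Their density there was 2.89 times (2.76 to 3.03) that of the remainder of the region. Gata2 tags were 1.86 times (1.79 to 1.94) as dense near the summit, with 49.1% (48.1 to 50.1) of 9989 tags. IgG, with the same tag length, was at 1.02 times (0.946 to 1.10), with 34.6% (32.9 to 36.2) of 3217 tags. The Ldb1 and Gata2 intervals lay above that of IgG, and that of IgG included even spread. In single steps of 50 bp, IgG was uneven as well: it stood at 1.20 and 1.12 times the distant flanks in the steps just before and after the summit, and at 0.918 and 0.964 times in the next ones outward.

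The gathering was about as large away from neighbouring sites. In the 2317 members with quiet neighbours, the density ratio was 2.99 (2.80 to 3.19) for Ldb1, 1.92 (1.82 to 2.03) for Gata2 and 1.00 (0.909 to 1.11) for IgG. In the 1840 that also met the limits in the centred window, it was 2.80 (2.60 to 3.01), 1.87 (1.76 to 1.99) and 1.00 (0.897 to 1.12). In the same measure, Ldb1 stood at 4.81 (4.72 to 4.91) in regions with Ldb1 alone, 3.80 (3.77 to 3.84) in three-factor regions and 2.35 (2.25 to 2.45) in regions with Gata2 alone. The members thus lay between the Gata2 regions and the regions called for Ldb1. For Gata2 the members' 1.86 was the lowest of the 4 classes. The ratio was 2.07 (1.999 to 2.14) in regions with Ldb1 alone, 2.29 (2.25 to 2.34) with Gata2 alone and 2.36 (2.34 to 2.38) in three-factor regions. IgG was at 1.01 (0.939 to 1.08) with Ldb1 alone and 1.13 (1.06 to 1.21) with Gata2 alone. In three-factor regions IgG was at 1.08 (1.04 to 1.13). The 4 classes were divided by their Ldb1 and Gata2 counts, and how far that division sets these ratios was not tested.

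**Figure D3:**
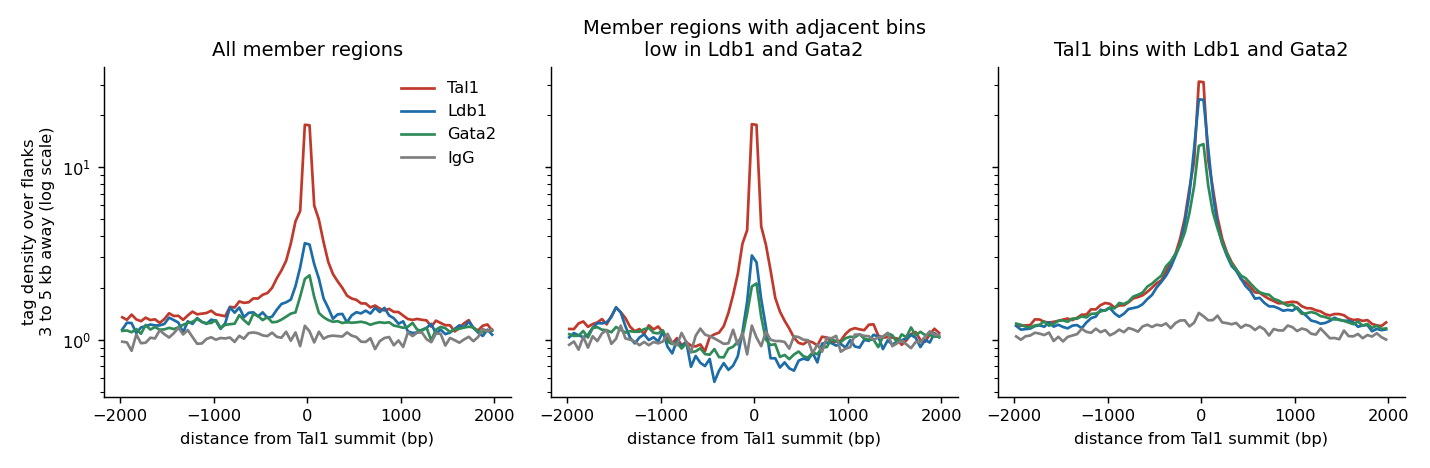
Tag density around the Tal1 summit (horizontal axis, bp) relative to flanks 3 to 5 kb outside the regions (vertical axis, log scale), in steps of 50 bp, for all member regions, members with quiet neighbours and three-factor regions. At the member summits Ldb1 reached 3.62 times and Gata2 2.36 times the flanks and IgG at most 1.20 times. At three-factor summits Ldb1 reached 24.6 times and Gata2 13.6 times. Tags beyond the region edges were counted too, and with quiet neighbours Ldb1 reached 3.07 times and Gata2 2.12 times. The dips beside the summit in the middle panel follow from the limit on adjacent bins.

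The strands of the Ldb1 and Gata2 tags were also ordered around the summit. A fragment centred on a site gives a forward 5′ end before it and a reverse 5′ end after it, and tags placed at random would do so in 50% of cases. Among unmoved 5′ ends within 150 bp of the Tal1 summit, 62.6% (61.6 to 63.6) of 8698 Ldb1 tags and 58.8% (57.8 to 59.8) of 8682 Gata2 tags faced the summit in this way. IgG was at 51.7% (49.4 to 53.9) of 1923 tags. These counts ran past the region edges, where the rule set no limit, so tags of adjacent bins are among them. The regions themselves held 7253 Ldb1 tags. In members with quiet neighbours, the shares were 72.2% (70.6 to 73.8) for Ldb1, 62.7% (61.2 to 64.3) for Gata2 and 51.7% (48.5 to 54.7) for IgG. Three-factor regions had 76.6% (76.4 to 76.8) for Ldb1 and 68.2% (67.9 to 68.4) for Gata2. Tal1, whose tags define the summit, had 75.1% in the members.

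**Figure D4:**
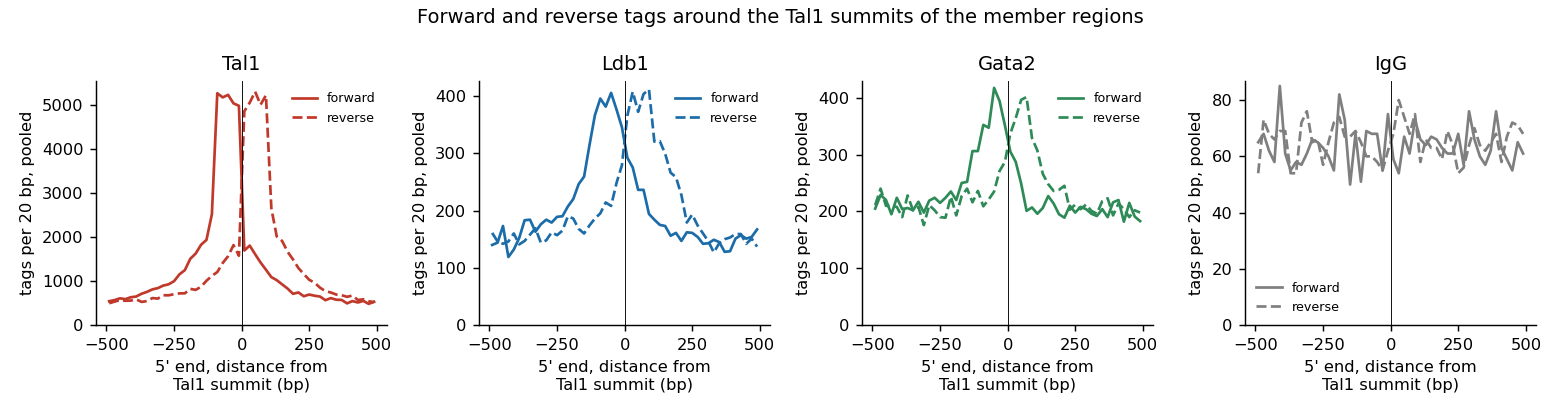
Pooled number of unmoved 5′ ends per 20 bp (vertical axis) by distance from the Tal1 summit (horizontal axis, bp) of the 4180 member regions. Forward tags of each library are solid and reverse tags dashed, and tags outside the regions are counted too. Forward Ldb1 and Gata2 tags peak before the summit and reverse tags after it, while IgG shows no such order; the Tal1 tags themselves placed the summit.

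Outside the members, Ldb1 and Gata2 stayed above the more distant flanks. Between 500 and 1500 bp from the region edges, Ldb1 density was 1.27 times (1.25 to 1.29) that of 3 to 5 kb, Gata2 1.20 times (1.19 to 1.22), Tal1 1.38 times (1.36 to 1.39) and IgG 1.03 times (1.01 to 1.05). In the 500 bp directly beside the regions, Ldb1 was at 1.90 times (1.87 to 1.93), which is more than the 1.29 times (1.26 to 1.32) inside, where the rule limited it. The nearer flank of the members resembled that of three-factor regions, at 1.29 times (1.28 to 1.30) for Ldb1, and was lower for Gata2, where three-factor regions had 1.35 times (1.34 to 1.36). With quiet neighbours, the members' values fell to 1.06 (1.03 to 1.08) for Ldb1 and 1.06 (1.04 to 1.08) for Gata2. IgG was at 0.998 (0.969 to 1.03). This remaining Ldb1 excess lay mostly before the summit. In steps of 50 bp, Ldb1 reached 1.54 times the distant flanks 1500 bp before the summit. From 500 to 1950 bp after it, the highest step was 1.09 times. The cause of the uneven sides was not tested. Even the flanks 3 to 5 kb away were denser than the genome mean, at 1.44 times for Ldb1, 1.42 times for Gata2 and 1.80 times for Tal1, with IgG at 0.922 times.

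The nearer Ldb1 flank did not climb steadily with the number of Ldb1 tags inside a member. In regions of 1 bin, the nearer Ldb1 flank was 1.24 times (1.20 to 1.29) the distant one at 0 Ldb1 tags, 1.29 times (1.25 to 1.33) at 1, 1.31 times (1.27 to 1.35) at 2 and 1.24 times (1.21 to 1.28) at 3. For Gata2, the nearer flank was 1.01 times (0.963 to 1.05) the distant one for members with 0 Gata2 tags, 1.17 times (1.13 to 1.20) at 1, 1.18 times (1.15 to 1.21) at 2, 1.27 times (1.24 to 1.30) at 3 and 1.27 times (1.23 to 1.30) at 4. The 357 members with 0 Gata2 tags also had the smallest Tal1 flank of the 5 Gata2 groups, at 1.20 times (1.17 to 1.24). By Tal1 count, the Ldb1 flank showed no steady order: 1.25 (1.22 to 1.29) at 14 or 15 Tal1 tags, 1.35 (1.31 to 1.39) at 16 to 19, 1.19 (1.15 to 1.23) at 20 to 29 and 1.34 (1.26 to 1.41) at 30 or more.

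The strand spacing of Tal1 tags in the members was close to that in the other Tal1 classes. Forward and reverse 5′ ends were most often 101 bp apart in the members. The distance was 105 bp with Ldb1 alone, 106 bp with Gata2 alone and 111 bp in three-factor regions. These differences lay within the 15 bp over which distances were smoothed. IgG gave 110 bp in the member regions, from 873 pairs of tags, and 118 to 135 bp in the other classes. The distance alone thus does not tell Tal1 tags from control tags. Pairs were counted up to 200 bp outside the regions, and members with quiet neighbours gave 113 bp for Tal1. A median of 50% of Tal1 tags per member were forward. In 37 of 4180 members, or 0.885% (0.624 to 1.22), over 80% of them were on 1 strand, compared with 0.948% (0.684 to 1.28) with Gata2 alone and 0.277% (0.187 to 0.395) of three-factor regions, and no member had Tal1 tags on a single strand. Each Tal1 position held 1.26 copies on average in the members, 1.33 with Ldb1 alone and 1.25 with Gata2 alone. The average was 1.40 in three-factor regions and 1.23 over chromosomes 1 to 19. The rule counted each position once, whatever its copies.

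The Tal1 tags of the members had few mismatches, but more low scores than those of the other Tal1 classes. Tags without a mismatch made up 92.1% of Tal1 tags there, 92.2% with Ldb1 alone and 91.8% with Gata2 alone. The share was 90.9% in three-factor regions and 91.0% over chromosomes 1 to 19. Deposited scores under 30, on a scale to 119 whose meaning is not given in the sources used here, were found for 2.22% of member tags, 1.80% with Ldb1 alone, 1.60% with Gata2 alone, 1.49% in three-factor regions and 3.59% on all of chromosomes 1 to 19. IgG had a median of 14 tags in the 10 kb around the member bins, as around all bins with a tag, and fewer than 10 at 14.8% of member bins against 15.97% of all bins. Whether single members stood in sequence that 25 bp tags could not reach was not tested.

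A three-factor bin lay within 10 kb of 1774 members, or 42.4% (40.9 to 44.0), where 8.36% of all bins with a tag had one, and touched 463 of them (11.1%). The corresponding shares within 10 kb were 47.9% (46.5 to 49.3) for regions with Ldb1 alone and 48.1% (46.6 to 49.5) for those with Gata2 alone, above the members by intervals that do not overlap. Three-factor regions had another such bin within 10 kb in 36.1% (35.2 to 37.0), below the members, and adjacent ones had been joined into them. The median gap was 15.5 kb, against 11.5 kb in the classes with Ldb1 or Gata2 alone and 19.5 kb for three-factor regions. In members with quiet neighbours the share was 32.1% (30.2 to 34.0), after regions that touch such a bin had been left out by definition. Another member lay within 10 kb of 806 regions, or 19.3% (18.1 to 20.5), and the median gap to it was 55.5 kb. Three-factor bins were the most numerous class, which bears on how near the next one lies.

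The members were found on every chromosome from 1 to 19. As a share of Tal1 bins they ranged from 12.5% (11.02 to 14.1) on chromosome 7 to 19.5% (17.3 to 21.8) on chromosome 3. Chromosomes 7 and 11, at 13.03% (11.7 to 14.5), had intervals below the common value of 16.1%. Those of chromosomes 2 (18.0%, 16.4 to 19.7), 3 and 13 (18.3%, 16.2 to 20.6) lay above it. Relative to all bins with a tag, the order was another one. Chromosome 19 had 14.2 and chromosome 11 had 13.47 member bins per 10000 bins, and chromosome 14 had 7.14. Chromosome 11 also had the most Tal1 bins of all kinds, 103 per 10000, followed by chromosome 19 with 98.8. The 19 intervals were not adjusted for their number.

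**Figure D5:**
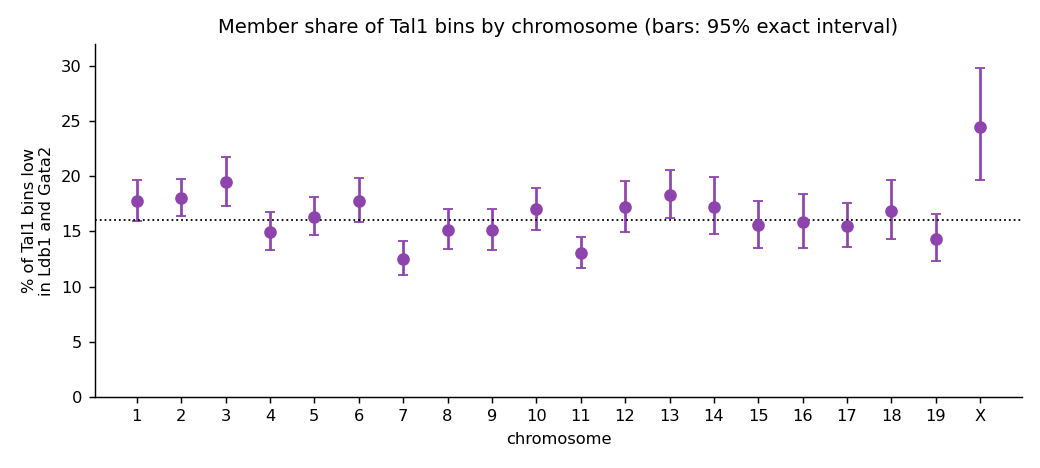
Members as a share of the Tal1 bins of each chromosome (vertical axis, %), with 95% exact intervals, and the common share of chromosomes 1 to 19 as a dotted line at 16.1%. The whole intervals of chromosomes 7 and 11 lie below the line and those of chromosomes 2, 3 and 13 above it. Chromosome X, which the rule left out, stands at 24.5%.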

How the data were processed

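The 4 deposited files list aligned tags, 1 line each, with chromosome, start, end, match, score and strand. The authors' alignment used build mm8, per the submitters' processing notes; the sources used here name no aligner or filter, and repeated tags were kept. The deposited score column runs from 4 to 119 for Tal1, from 4 to 53 for Gata2 and is 0 for Ldb1 and IgG; mismatches were read from the match column. Tags that repeated a position on chromosomes 1 to 19 were counted once: 33.0% (Ldb1), 18.4% (Tal1), 14.1% (Gata2) and 30.1% (IgG). Bins, limits and joining follow the rule stated at the start of the results. The summit is the position with most moved Tal1 tags within 50 bp. Shares have Clopper-Pearson intervals and density ratios conditional binomial intervals, pooled over regions. The counting, joining and strand steps were tested on simulated data.

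Members, classes and measures were chosen with earlier results of these data known. Named regions are the strongest of each chromosome, the 5 strongest of all, the 5 strongest with 0 tags of the other libraries, and the longest. Alternatives were other bin places, tag movements, tag filters and limits. The measures around the summit, all alternatives for the class shares and for match and score, the limits on summit position and IgG and the centred windows were added after the files were seen. Python 3.11.15, numpy 2.4.6, scipy 1.17.1 and pandas 2.3.3 were used.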

Additional observations from a re-analysis of the deposited data

Results flagged for a closer look

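Chromosome X was outside the rule and outside every comparison above. When the same limits were applied there, 72 bins in 71 regions met them. Exchanging Tal1 and IgG in the rule gave 0 bins on chromosome X and also 0 of the 4299458 bins on chromosomes 1 to 19. IgG averaged only 0.791 tags per bin on chromosomes 1 to 19, far from the 14 that the exchange requires. The exchange therefore cannot serve as a control for the 72 bins. The 72 bins made up 24.5% (19.7 to 29.8) of 294 Tal1 bins, a share above that of each of chromosomes 1 to 19, although its interval overlaps that of chromosome 3 (17.3 to 21.8) among others. Relative to all bins with a tag they were rarer, at 2.86 per 10000, and Tal1 averaged 1.55 tags per bin on chromosome X against 2.02 on chromosomes 1 to 19. Their mean counts were 1.51 Ldb1, 2.19 Gata2 and 0.667 IgG tags, and the highest Tal1 count was 61. The part of the lower tag density in the share was not tested.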

How the results depend on the processing

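Of the values recomputed under alternatives, 96 stayed within the interval of the reported value (for counts of regions, within 1.5 times, and for the strand distance, within 15 bp) and 55 did not. The ratios of Ldb1 and Gata2 around the summit and in the flank at 500 to 1500 bp stayed above 1 under each alternative run. For the flank both sides were pooled, and with quiet neighbours the Ldb1 excess lay mostly before the summit. The directly adjacent flank was recomputed with quiet neighbours alone, where the limit on adjacent bins held it to 0.772 (Ldb1) and 0.848 (Gata2). Ldb1 around the summit ranged from 2.195 to 3.781 and the Tal1 strand distance from 96 to 113 bp. IgG around the summit ranged from 0.925 to 1.131. Its interval lay above 1 with every deposited tag (1.066, 1.002 to 1.133) and with tags without a mismatch (1.092, 1.004 to 1.187). Fewer regions under stricter limits follow from the limits; the cause of the other changes was not tested.

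With quiet neighbours, 2317 regions remained, with 32.1% near a three-factor bin, flank ratios of 1.056 (Ldb1), 1.064 (Gata2) and 0.998 (IgG) and 72.2% of Ldb1 tags facing the summit. The share beside an Ldb1 bin and the class share were not computed there, nor the class share with the summit limit or the match with tags without a mismatch, since the setting itself fixes or redefines them. With at least 20 Tal1 tags, 1402 regions remained (9.52% of Tal1 bins), with flank ratios of 1.214 (Ldb1) and 1.164 (Gata2), summit ratios of 3.781 (Ldb1), 1.97 (Gata2) and 1.131 (IgG), 65.4% facing, 1.286 copies and 92.3% without a mismatch. With at most 1 Ldb1 and 1 Gata2 tag, 572 regions remained (2.13%), with 24.5% beside an Ldb1 bin, 40.4% near a three-factor bin, a Gata2 flank of 1.084, summit ratios of 2.671 (Ldb1) and 0.925 (IgG) and 58.2% facing. With every deposited tag, there were 5278 regions, of which 45.8% were beside an Ldb1 bin and 46.5% near a three-factor bin; flanks were 1.227 (Gata2) and 1.063 (IgG), summit ratios 2.225 (Ldb1) and 1.68 (Gata2), 55.7% faced the summit and copies were 1.307. Only 2373 of the 4180 reported regions (56.8%) overlapped one of these, and 1903 of the 4334 member bins (43.9%) exceeded at least 1 limit, 1319 of them that of Ldb1. With tags without a mismatch, members were 18.1% of Tal1 bins, 25.95% were beside an Ldb1 bin and 39.9% near a three-factor bin, the Ldb1 summit ratio was 3.16, 64.2% faced and copies were 1.252. With tags not moved, the Ldb1 flank was 1.239, summit ratios were 2.195 (Ldb1) and 1.676 (Gata2), 57.85% faced and 31.95% were beside an Ldb1 bin. With the summit at least 100 bp from the edge, 2418 regions remained, with 20.3% beside an Ldb1 bin, 38.6% near a three-factor bin, flanks of 1.217 (Ldb1) and 1.182 (Gata2), summit ratios of 2.574 (Ldb1) and 1.743 (Gata2) and 69.8% facing. Centred windows kept 2670 regions. At least 10 IgG tags in 10 kb gave a Gata2 flank of 1.221. Bins begun 250 bp further along gave 61.3% facing and 16.7% of Tal1 bins. Without a limit on IgG, and with each library moved by its own distance, all values stayed within the reported intervals.

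The depth of 3866477 Ldb1 tags leaves a mean of 0.899 tags per bin, so a single member with 0 to 3 tags cannot be told from a weakly bound one. No paired analysis was possible because each antibody had 1 library.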

Other observations

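The longest member joined 4 bins on chromosome 13 from 12303501 to 12305500 and held 44, 42, 15 and 23 Tal1 tags, with 7 Ldb1, 7 Gata2 and 2 IgG tags in all. Its Tal1 tags were 57 forward and 67 reverse, and the nearest three-factor bin was 144 kb away. It was the only region of 4 bins, beside 3 of 3 bins, 145 of 2 bins and 4031 of 1 bin.

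Most members stood alone: 3374 had no other member within 10 kb. The largest cluster, linked by gaps of at most 10 kb, had 7 members within 14.5 kb on chromosome 7 from 28518501 to 28533000. Their best bins held 14 to 33 Tal1 tags, and the same span held 2 three-factor bins and 6 bins with at least 4 Ldb1 tags.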
